A study of Mus musculus with 4 samples.

Results

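The 9 genes described here, Fgfr2, Fgfr1, Fgfr3, Ctnnd1, Enah, Arhgef11, Slk, Magi1 and Exoc7, are known targets of the epithelial splicing regulatory proteins (ESRPs). They were chosen by name as genes with ESRP-regulated exons, and every probe set that the platform annotation pairs with one of these symbols alone was taken, which gave 30 of the 45101 probe sets of the array. No further probe set paired a member with a second gene. By gene number all 30 symbols matched the current reference names. Of the 30 probe sets, 24 lay above the filter on dim signals and were tested. The 6 below it were Fgfr2 1443211_at, Fgfr1 1436551_at and 1424050_s_at, Enah 1431162_a_at, Slk 1443815_x_at and Magi1 1440071_at.

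ESRP1 and ESRP2 are RNA-binding proteins of epithelial cells that bind near alternative exons and favour the epithelial choice of exon. They change which isoform of a target is made and need not change how much mRNA the gene gives. Their best known targets encode growth factor receptors, adherens junction proteins and regulators of actin and membrane traffic, and their isoforms switch when epithelial cells become mesenchymal. An array of this kind reads a gene through short probe sets that mostly lie near the 3' end of a transcript, so a probe set registers a switched exon only if it lies in that exon or in an end that differs between isoforms. Where the members' probe sets lie within the transcripts was not analysed here.

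The samples were 4T1 cells, a mouse mammary carcinoma line, in 2 groups. One was labelled positive and the other negative for CD44v8-10, a splice form of the surface receptor CD44 that carries variant exons, and each had 2 samples of total RNA on 1 array each. Both groups were grown in RPMI 1640 medium with bovine serum and kept in normoxia, and their cells were picked by hand under a microscope. How the cells were divided by CD44v8-10 is not given in the sources used here, and the labels do not say that the 2 samples of a group came from separate cultures, so p-values reflect the spread of these samples alone, and that spread may be technical. All cells were of 1 line, which limits what the groups can stand for.

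The arrays differed in brightness, with 2% trimmed means of deposited intensity from 195 to 344, and were quantile normalized; signals below are these normalized intensities. The filter level was a signal of 19.4. Log2 fold changes are positive over negative on the log2(signal + 16) scale, which understates differences of dim probe sets. The line's epithelial markers Krt8, Krt18, Cdh1, Epcam and Cldn7 were all above the filter, as were 2 of 8 fibroblast, 4 of 8 macrophage, 0 of 5 endothelial and 1 of 5 lymphocyte markers. The epithelial markers were not alike in the groups: Epcam (log2 fold change 1.34, limma adjusted p 0.0118) and Cldn7 (2.31, limma adjusted p 0.000639) were higher in the positive cells, while Krt8, Krt18 and Cdh1 did not pass. Neither passed with no scaling or without the intensity trend (limma adjusted p 0.0760 to 1.00), and Epcam also lost the call without positive replicate 1 (0.0842) or 2 (0.258), with no filter (0.105), with median centring (0.0961) and with its probe sets averaged (0.189). The fibroblast marker Pdgfra had signals of 47.0 and 33.5 against 108 and 76.6 (-0.94, unadjusted p 0.0111, limma adjusted p 0.980). The other tested fibroblast marker, Col1a2, did not go with it. Its signals of 42.1 and 48.3 against 38.6 and 48.3 overlapped (0.045, limma adjusted p 0.993). The summed signal of the 4 tested macrophage markers was 439 and 552 on the positive arrays and 365 and 344 on the negative ones. Their log2 fold changes ran from 0.34 to 0.51, and none passed (limma adjusted p 0.985 for each). The groups did not overlap in any of the 4, where 32.3% of all genes did not overlap. The part of any of these cell type markers in a result here was not tested.

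Esrp1, which was far higher in the positive cells, sets the context. Its signals were 1349 and 1365 on the positive arrays and 64.1 and 30.9 on the negative ones, a log2 fold change of 4.48 ± 0.27 (SE; limma adjusted p 1.03e-05 over 11956 genes). In RNA from many cells, more cells that express a gene and more RNA per cell cannot be told apart. Its paralog Esrp2 had signals of 247 and 295 against 176 and 160 in its brighter probe set, a log2 fold change of 0.64 (unadjusted p 0.0160, limma adjusted p 0.985). The dimmer Esrp2 probe set, 1419977_s_at, had 94 and 60 against 51 and 68, which overlapped (0.29, interval -0.40 to 0.98, limma adjusted p 0.961). Cd44, another ESRP target, had 0.11 for its brightest probe set and 0.14 for the next. The remaining tested one, 1452483_a_at, had 1741 and 1696 against 1581 and 1059, with both positive arrays the higher (0.40, interval -0.083 to 0.89, limma adjusted p 0.959), and a within-gene contrast of 0.28 (unadjusted p 0.212, limma adjusted p 1.00).

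None of the 24 tested probe sets of the 9 target genes differed detectably between the groups. By limma 0 of 24 passed an adjusted p of 0.05, where 0.0333% of all 27022 probe sets tested passed (9, all higher; 10 higher and 2 lower with arrays centred on their median, 3 higher and 1 lower with no scaling). At an unadjusted p under 0.05 the members again gave 0 of 24, where 4.61% of all probe sets fell, and their lowest unadjusted p was 0.126. Of the 24, 11 lay above 0 and 13 below, with a median log2 fold change of -0.022, beside a median of 0.00010 over all probe sets. The median size of the difference, whatever its sign, was 0.18 in the members and 0.19 over all probe sets. With no scaling between arrays the median over all probe sets shifted to -0.17 and that of the 23 members tested to -0.17.

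The 95% intervals of 16 of the 24 probe sets lay wholly between log2 values of -1 and 1, and the bounds over all 24 ran from -1.22 to 1.53. A change as large as that of Esrp1 lay outside the interval of every member probe set tested. The positive arrays were both above the negative ones in 5 of the 24 and both below in 2, together 29.2%, where 33.2% of all probe sets tested did not overlap (16.5% higher and 16.7% lower). Taking 1 value a gene, the brightest probe set, 0 of the 9 genes passed (limma), where 0.0753% of 11956 genes passed, and 0 had an unadjusted p under 0.05, where 4.45% did. The groups did not overlap in 3 of the 9, beside 32.3% of all genes.

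**Figure D1:**
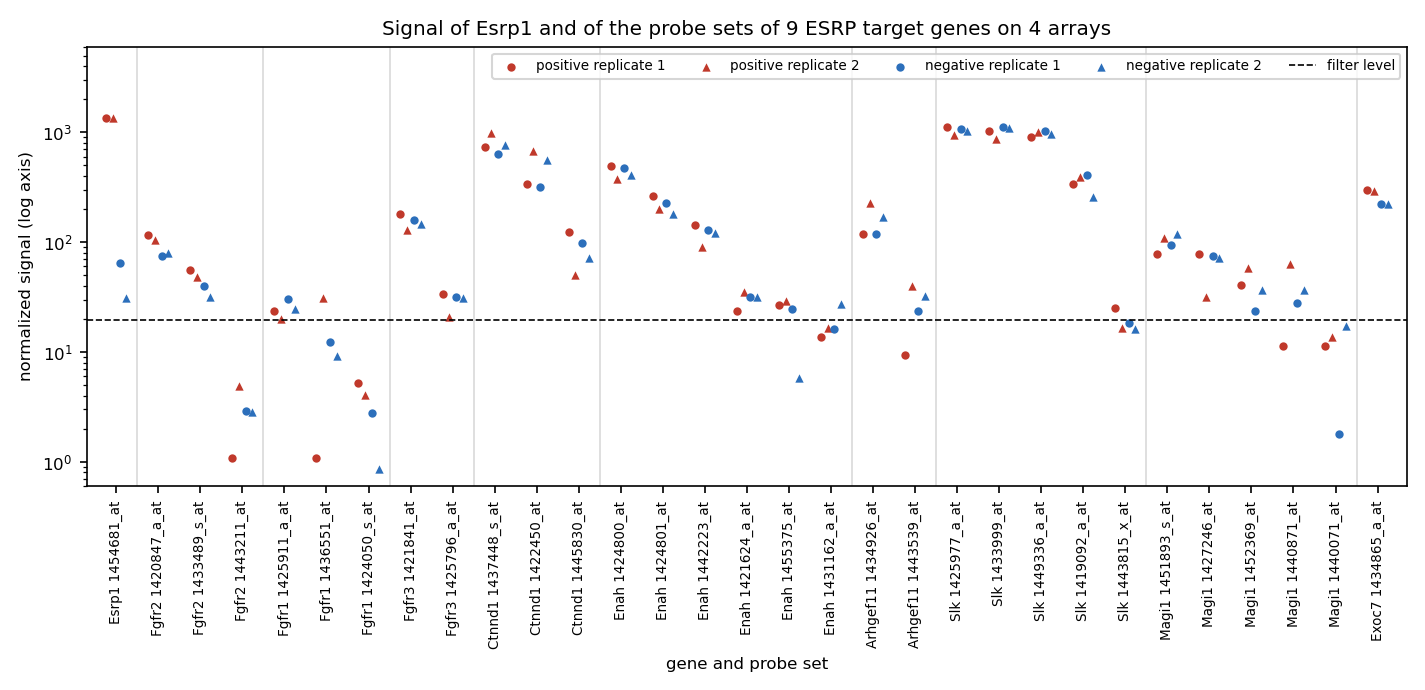
Normalized signal (log axis) of Esrp1 and of the 30 probe sets of the 9 target genes, 1 point per array, with the filter level of 19.4 as a dashed line. Esrp1 lies between 1349 and 1365 in the positive and at 64.1 and 30.9 in the negative arrays. The groups overlap in 17 of the 24 tested target probe sets, and some replicates lie far apart.

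**Figure D2:**
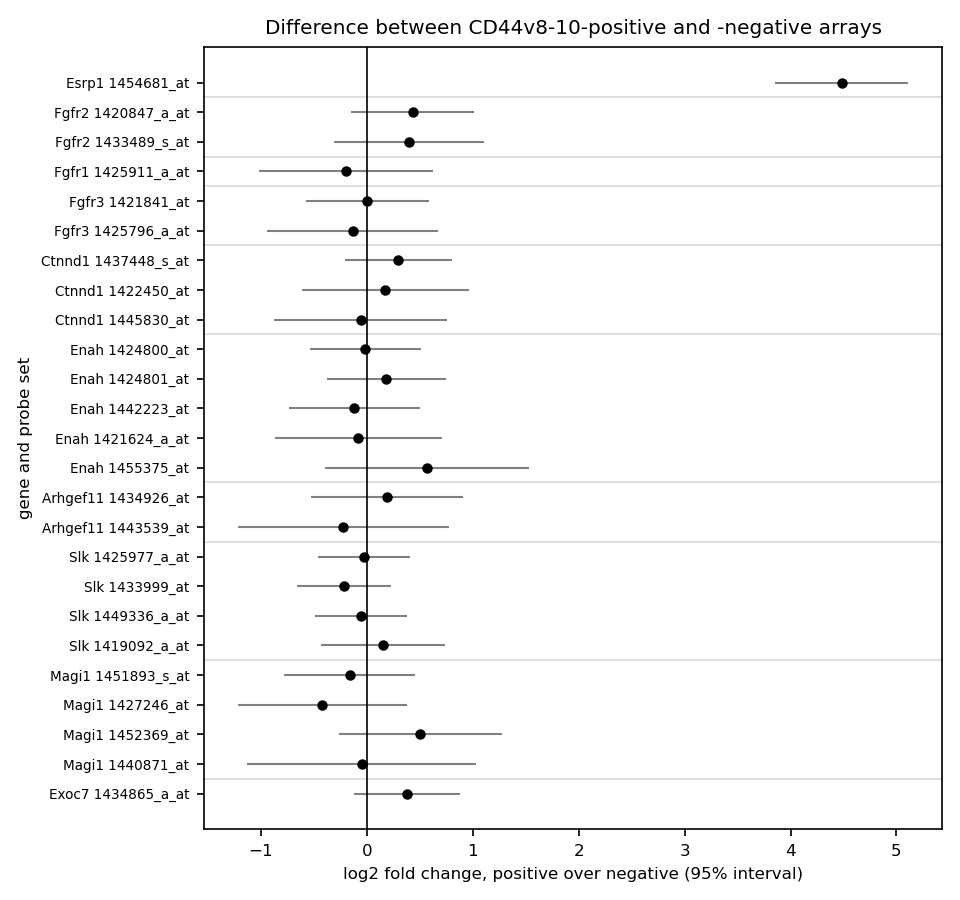
Log2 fold change of positive over negative arrays with its 95% interval (limma) for Esrp1 and the 24 target probe sets above the filter. Esrp1 stands at 4.48 and every interval of a target probe set includes 0.

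The 3 FGF receptors are tyrosine kinases that share a pair of mutually exclusive exons in the extracellular domain; the ESRPs favour the epithelial version of the pair in Fgfr2, which sets which FGF ligands the receptor binds. Fgfr2 was the member gene whose tested probe sets stood most alike. Probe set 1420847_a_at gave 116 and 104 on the positive arrays and 75.3 and 79.6 on the negative ones. Both positive arrays were the higher ones, and the log2 fold change was 0.43 (1.35-fold, 95% interval -0.15 to 1.01, limma adjusted p 0.959). The second, 1433489_s_at, gave 55.6 and 48.3 against 39.5 and 31.9, again without overlap, with 0.40 (1.32-fold, interval -0.31 to 1.10, limma adjusted p 0.959). Neither passed, even unadjusted (p 0.127 and 0.240 by limma). With no scaling between arrays the first was 0.22 and the second 0.31. The deposited intensities of the first, 102.5 and 93.3 against 56.6 and 116.3, overlapped, and those of the second did not.

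Fgfr3 did not separate the groups. Its brighter probe set, 1421841_at, had signals of 182 and 129 on the positive arrays and 159 and 146 on the negative ones, so the positive arrays lay on both sides of the negative ones (log2 fold change 0.0047, interval -0.57 to 0.58). That value was -0.21 with no scaling and -0.12 with arrays centred on their median. The dimmer 1425796_a_at gave 34.0 and 21.0 against 31.6 and 30.8, where 1 positive array was the lowest and the other the highest (-0.13, interval -0.94 to 0.67). Fgfr1, the receptor that mesenchymal cells commonly carry, was near or below the filter level. Its one tested probe set, 1425911_a_at, gave 23.6 and 20.0 on the positive arrays and 30.1 and 24.7 on the negative ones, with both positive arrays the lower (-0.20, interval -1.02 to 0.62, limma adjusted p 0.975).

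Ctnnd1 encodes p120-catenin, which holds E-cadherin at the adherens junction and whose longer isoforms belong to mesenchymal cells. Its 3 probe sets were all above the filter and none separated the groups. The brightest, 1437448_s_at, had 739 and 991 on the positive arrays and 631 and 763 on the negative ones (log2 fold change 0.30, interval -0.21 to 0.80, limma adjusted p 0.959). Probe set 1422450_at, built on a RefSeq transcript, had 335 and 682 on the positive arrays and 316 and 564 on the negative ones. Here the arrays split by replicate number and not by group: both second replicates were well above both first replicates, and the group difference was 0.17 (interval -0.62 to 0.96). The third, 1445830_at, ran the other way, with 124 and 50.0 on the positive arrays and 97.8 and 71.8 on the negative ones, so that both second replicates were the lower (-0.058, interval -0.87 to 0.76). The sign of the 1422450_at value rested on single arrays, since it was -0.32 without positive replicate 2 and -0.23 without negative replicate 1.

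Enah encodes Mena, an actin regulator of the Ena/VASP family that gains a small exon in epithelial cells and loses it in invasive ones. Of its 5 tested probe sets, 4 overlapped between the groups, with log2 fold changes from -0.12 to 0.18. The brightest, 1424800_at, had 498 and 379 on the positive arrays and 472 and 408 on the negative ones, and the positive arrays again lay on both sides (-0.015, interval -0.54 to 0.51). The fifth, 1455375_at, had 27.0 and 29.4 on the positive arrays and 24.8 and 5.75 on the negative ones. It had the highest log2 fold change of any member, 0.57 (interval -0.40 to 1.53, limma adjusted p 0.959), and it is dim: 1 negative array lay below the filter level while the other was close to the positive ones. Without negative replicate 2 this value was 0.10.

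Arhgef11 encodes a guanine nucleotide exchange factor that activates RhoA at cell junctions, and its ESRP-sensitive exon lies in the coding region. Its probe set 1434926_at had 118 and 228 on the positive arrays and 118 and 171 on the negative ones, so the first replicates of both groups had nearly the same signal and the second replicates were higher in both (0.19, interval -0.53 to 0.91). The value was -0.25 without positive replicate 2 and -0.048 without negative replicate 1. The dim 1443539_at had 9.32 and 39.5 in the positive arrays, which bracketed the 23.7 and 32.1 of the negative arrays (-0.22, interval -1.22 to 0.78).

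Slk, a kinase of the Ste20 family that acts on focal adhesions and cell migration, had the 3 probe sets with the smallest standard errors among the members. These were 1425977_a_at, 1433999_at and 1449336_a_at, with signals between 870 and 1119 on all 4 arrays. Their log2 fold changes were -0.029, -0.22 and -0.060, each with a standard error of 0.20. The intervals reached from -0.66 at the lowest to 0.41 at the highest, so a difference of 2-fold lay outside all 3. In 1433999_at both positive arrays, at 1040 and 870, were below the negative arrays, at 1119 and 1099; in the other 2 the groups overlapped. The fourth, 1419092_a_at, had 342 and 390 on the positive arrays and 412 and 260 on the negative ones (0.15, standard error 0.26, interval -0.44 to 0.74).

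Magi1 encodes a scaffold with PDZ domains that sits at tight and adherens junctions, and it was the gene whose probe sets diverged most. Probe set 1452369_at had 40.8 and 58.1 on the positive arrays and 23.7 and 36.8 on the negative ones, with both positive arrays the higher (log2 fold change 0.50, interval -0.27 to 1.27, limma adjusted p 0.959). Probe set 1427246_at had 78.1 and 31.5 on the positive arrays and 75.5 and 71.8 on the negative ones. Positive replicate 2 alone was low there, and the value of -0.42 (interval -1.22 to 0.37) became 0.074 without that array and -0.92 without the other positive array. The remaining 2, 1451893_s_at and 1440871_at, overlapped between groups and had -0.16 and -0.050.

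Exoc7 encodes a subunit of the exocyst, the complex that tethers secretory vesicles to the plasma membrane. Its one probe set, 1434865_a_at, had the closest replicates of any member: 296 and 294 on the positive arrays and 223 and 224 on the negative ones. The groups did not overlap, and the log2 fold change was 0.38 (1.30-fold, interval -0.13 to 0.88). It did not pass, with an unadjusted p of 0.126 and an adjusted p of 0.959 by limma, whose standard error draws on all probe sets of like brightness and not on these 4 values alone. With no scaling the value was 0.16. The deposited intensities before normalization, 270 and 259 against 168 and 327, overlapped, with the negative arrays on both sides of the positive ones.

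The 6 probe sets below the filter had signals from 0.850 to 30.8. Fgfr1 1424050_s_at, at 5.15 and 4.03 on the positive arrays and 2.75 and 0.850 on the negative ones, was the one of them whose groups did not overlap, and all 4 of its signals lay below the filter level. The highest signals, 30.8 in Fgfr1 1436551_at (positive replicate 2) and 27.6 in Enah 1431162_a_at (negative replicate 2), each came from 1 array. No fold is given for these probe sets.

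To compare the probe sets of a gene with each other, each probe set was compared within each array with the mean of the gene's other probe sets above the filter, and that difference was compared between the groups. This gave 22 contrasts in 7 genes, as Fgfr1 and Exoc7 had 1 tested probe set each; a gene with 2 gives 1 difference seen from both sides. By limma 0 of the 22 passed an adjusted p of 0.05 (the lowest adjusted p was 1.00), where 0% of 16377 contrasts in 5833 genes did. At an unadjusted p under 0.05 there were 0 of 22, where 2.71% of all contrasts fell, and limma's diffSplice called 0 of the 22 as well. The groups did not overlap in 7 of 22, or 31.8%, beside 29.1% of all contrasts.

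Magi1 1452369_at departed furthest. It stood at -0.13 and -0.067 relative to the gene's other probe sets in the positive arrays and at -0.94 and -0.69 in the negative arrays, on the log2 scale. The groups did not overlap, and the contrast was 0.71 (interval -0.084 to 1.51, unadjusted p 0.0737, limma adjusted p 1.00). Enah 1455375_at followed with 0.58 (interval -0.50 to 1.65), again set by its low second negative array. Magi1 1427246_at, at -0.52, carried the low positive replicate 2. Without positive replicate 1 its contrast was -1.41, with a limma adjusted p of 0.0971, the lowest of any member contrast in any setting. In Arhgef11 the brighter probe set stood 2.40 and 2.14 above the dimmer one in the positive and 1.76 and 1.95 above it in the negative arrays, a contrast of 0.41 (interval -0.53 to 1.36). The Fgfr2 probe sets kept nearly the same distance in both groups, with a contrast of 0.034 (interval -0.73 to 0.80), and the 4 Slk probe sets gave -0.24 to 0.25.

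**Figure D3:**
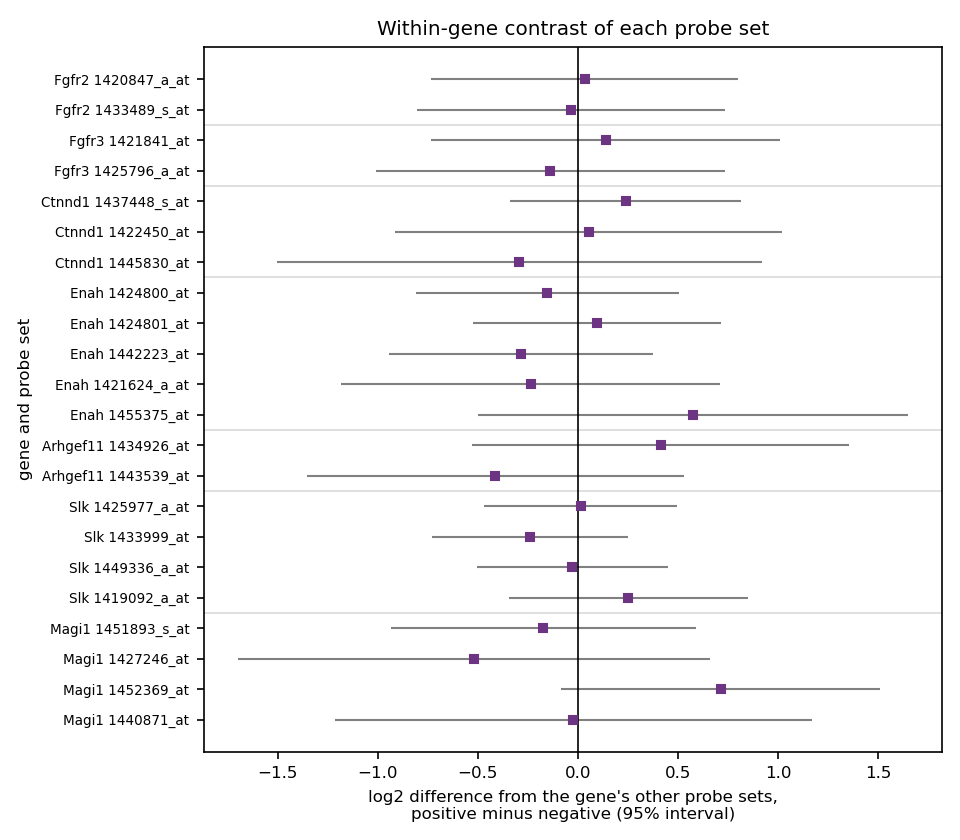
Within-gene contrast of the 22 member probe sets: each probe set's log2 difference from the mean of its gene's other probe sets, positive minus negative arrays, with its 95% interval (limma). Every interval includes 0, and Magi1 1452369_at, at 0.71, lies furthest from it.

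The range of log2 fold changes among the probe sets of a gene was read against genes with the same number of tested probe sets. Magi1 spanned 0.93 over 4 probe sets, above the upper quartile of 0.69 for the 668 genes with 4, whose median was 0.47. Slk, also with 4, spanned 0.37. Arhgef11 spanned 0.41 over 2, just above the upper quartile of 0.39 for 3113 genes with a median of 0.22, while Fgfr3 at 0.14 lay below that median. Fgfr2, at 0.034, lay below the lower quartile of 0.10. Ctnnd1 at 0.35 over 3 and Enah at 0.69 over 5 lay within the quartiles of 0.22 to 0.55 and 0.38 to 0.83. These ranges are a description, and precision differed between genes: the standard errors of the log2 fold changes ran from 0.28 to 0.49 in Magi1 and from 0.20 to 0.26 in Slk.

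**Figure D4:**
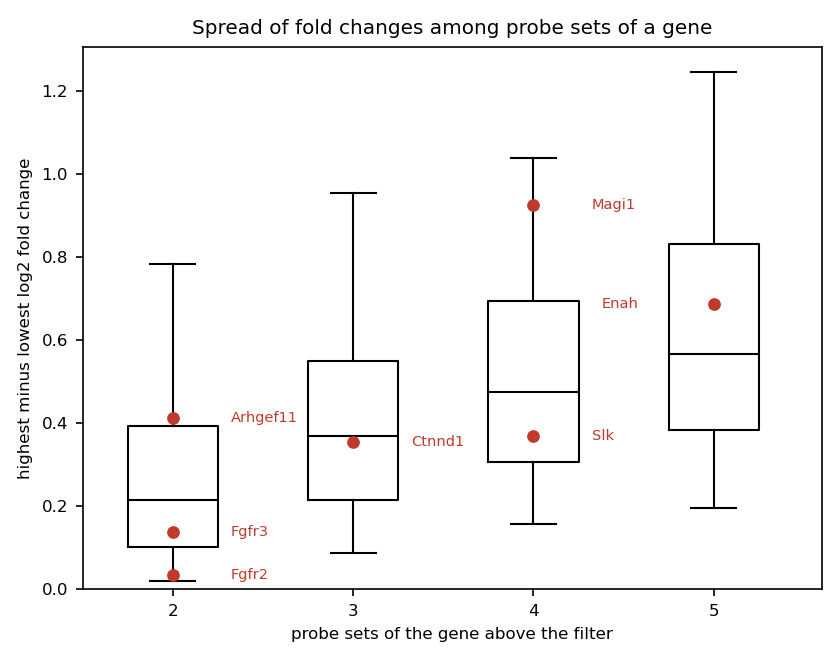
Highest minus lowest log2 fold change among a gene's tested probe sets, by their number. Boxes show the quartiles and median of all genes with that number and whiskers the 5th and 95th percentiles; points are the 7 target genes with at least 2, of which Magi1 (0.93) and Arhgef11 (0.41) lie above their box and Fgfr2 (0.034) below.

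Replicates of a group differed from each other by more than the groups did in most members. The larger of the 2 replicate gaps exceeded the group difference in 19 of 24 probe sets, or 79.2%, and in 80.1% of all probe sets tested. In 18 of the 24 the second replicate deviated from the first in the same direction in both groups, beside 53.7% of all probe sets; several of the 18 belong to the same gene. The largest gap was in Magi1 1440871_at, where positive replicate 2 exceeded replicate 1 by 1.53 on the log2 scale and the negative arrays differed by 0.26. In Ctnnd1 1422450_at the gaps were 0.99 and 0.80, in the same direction. The labels give no shared day or batch for samples of one number, and whether such a batch played a part was not tested.

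**Figure D5:**
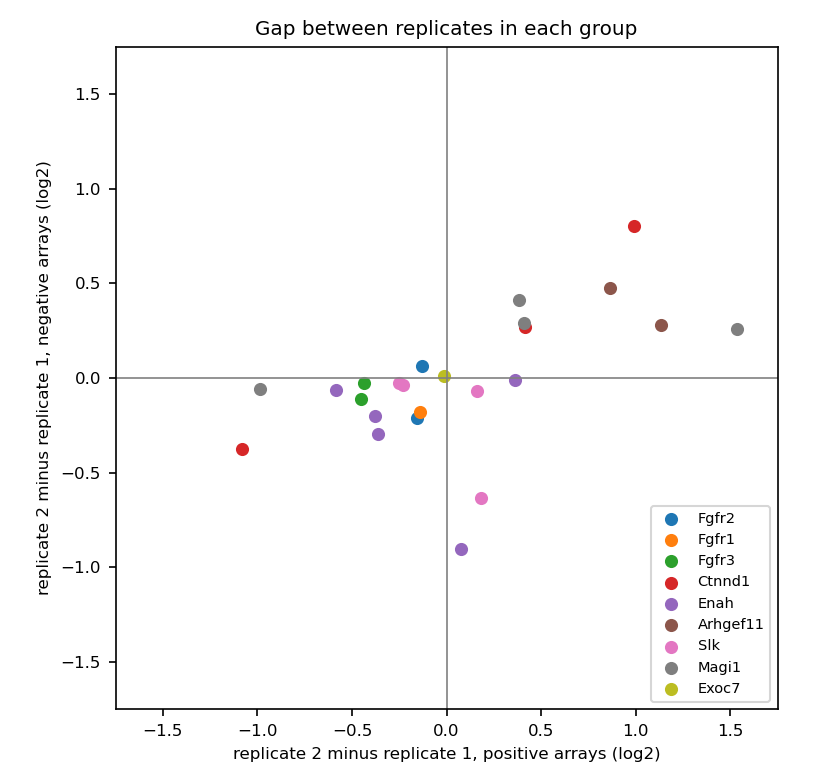
Log2 difference of replicate 2 from replicate 1 in the positive arrays (horizontal) and negative arrays (vertical) for the 24 tested probe sets, coloured by gene. Points in the upper right and lower left moved the same way in both groups, 18 of 24; Ctnnd1 1422450_at lies at 0.99 and 0.80 and Arhgef11 1434926_at at 0.87 and 0.48.

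Other genes around these targets were read from lists of related genes, with 1 value a gene. Of 18 other genes with ESRP-sensitive exons, 16 were tested and 0 passed by limma, 0 had an unadjusted p under 0.05, 8 lay above 0 and 8 below, and the median was 0.0017. Over all genes 54.3% lay above 0, with a median of 0.028, 4.45% had an unadjusted p under 0.05 and 32.3% had groups that did not overlap, which was so in 2 of these 16. The brightest were Cd44, at 0.11, and the tight junction scaffold Tjp1, at -0.17. Among 21 tested regulators known to act on such exons, Esrp1 alone passed, 12 lay above 0, and the median was 0.0078. The groups did not overlap in 9 of the 21, beside 32.3% of all genes. At an unadjusted p under 0.05 there were 2 with higher values, Esrp1 and Esrp2, and 3 with lower values, together 5 of 21, where 4.45% of all genes fell. The 3 are named after their values were seen. Rbfox2, which binds near many of the same exons, had signals of 307 and 344 on the positive arrays and 455 and 561 on the negative ones, with no overlap (log2 fold change -0.61, unadjusted p 0.0166, limma adjusted p 0.985). Mbnl2, a muscleblind protein, had 1199 and 770 against 1558 and 1580, also without overlap (-0.70, unadjusted p 0.00876, limma adjusted p 0.919). The third was the RNA-binding protein Tia1 (-0.44, limma adjusted p 0.985).

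Of 25 FGF signalling partners, 20 were tested and 0 passed by limma; 13 lay above 0, where 54.3% of all genes did, with a median of 0.092. At an unadjusted p under 0.05 there were 2 with higher and 2 with lower values among the 20, beside 4.45% of all genes. The groups did not overlap in 13 of the 20, beside 32.3% of all genes. Fgfbp1, a secreted protein that releases FGFs from the matrix, had 3001 and 2939 on the positive arrays and 1867 and 2172 on the negative ones, without overlap (0.56, unadjusted p 0.00625, limma adjusted p 0.884). The other bright partner, the ERK phosphatase Dusp6, had -0.28. Frs3 (1.13), Spred1 (-0.53) and Fgf9 (-1.04), named after their values were seen, were the others under the unadjusted threshold, and Frs3 and Fgf9 each had 1 array below the filter level. Of 29 partners of the junction, actin and exocyst members, 28 were tested and 0 passed by limma, 15 lay above 0, the groups did not overlap in 5, and the median was 0.011. Their brightest, profilin (Pfn1) and beta-catenin (Ctnnb1), had -0.055 and -0.0062, and the semaphorin receptor Plxnb1, named after its value was seen, was the one gene with an unadjusted p under 0.05 (0.72, p 0.0257, limma adjusted p 0.985).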

How the data were processed

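Total RNA of 2 CD44v8-10-positive and 2 CD44v8-10-negative 4T1 samples was measured on 1-colour Affymetrix arrays. The deposited values are linear intensities, 1 per probe set and array; the submitters' processing notes name GCOS without a role, while how probe sets were summarised, background-corrected or scaled is not given in the sources used here, and the small number of arrays limits the precision.

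Intensities were quantile normalized, transformed as log2(value + 16), freed of 64 control probe sets and filtered at the 40th percentile of the mean over the arrays, which left 27022 probe sets. Groups were compared with limma 3.58.1 in R 4.3.3 (lmFit and trended eBayes, two-sided, threshold 0.05). The p-values were adjusted by Benjamini-Hochberg across all probe sets, all genes or all within-gene contrasts, each comparison on its own. Degrees of freedom, prior included, were 10.1 for probe sets, 12.2 for genes and 9.29 for contrasts. Within-gene contrasts were made per array and fitted alike, with the lower of both mean levels as the trend covariate. Gene values are those of the brightest probe set. Symbols come from the platform annotation of 34945 probe sets with 1 symbol; 932 with several and 9160 with none were not named. Identifiers ending in _s_at or _x_at are less specific, and those ending in _a_at cover several transcripts of a gene. The fits were tested on simulated data with independent noise for each probe set. The changes put in were larger than any log2 fold change of a member, so the simulation does not speak to changes of the members' size.

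Named genes were the members, Esrp1, Esrp2 and Cd44, and from each list the genes past the threshold or else the 2 brightest. Rbfox2, Mbnl2, Tia1, Frs3, Spred1, Fgf9, Plxnb1, Fgf7, Fgfr4, Fgfrl1, Scrib and the cell type markers Pdgfra, Col1a2, Krt8, Krt18 and Cdh1 fall outside this rule and were named after their values were seen. Members and lists were chosen with earlier results of these data known. Alternatives covered scaling, the pseudocount, the filter, less specific probe sets, the trend, a replicate block, left-out arrays, diffSplice and averaging the probe sets of a gene.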

Additional observations from a re-analysis of the deposited data

How the results depend on the processing

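No member probe set or member within-gene contrast was called under any alternative (limma). The absence of unadjusted p-values under 0.05 did not hold throughout. With all arrays kept, a member fell under it only without the intensity trend, in 1 of the 22 contrasts (limma). Members also fell under it without positive replicate 1, where a single array stands for the positive group. Without positive replicate 1, Magi1 1427246_at had a log2 fold change of -0.92 and a contrast of -1.41. Of 320 member values under 14 alternatives, 290 kept their sign, and 8 of the 24 probe sets, among them both of Fgfr2 and that of Exoc7, kept it in all in which they were tested. The alternatives for the filter, less specific probe sets, the trend and the replicate block leave a log2 fold change as it was. Their values, which are part of the 290, kept their sign by construction and say nothing about its stability. With no scaling, signs turned for Fgfr3 1421841_at (-0.21), Ctnnd1 1422450_at (-0.031), Enah 1424801_at (-0.038), Arhgef11 1434926_at (-0.052), Slk 1419092_a_at (-0.071) and Cd44 (-0.057). With one trimmed mean they turned for Fgfr3 1421841_at (-0.034) and Enah 1421624_a_at (0.011), with median centring for Fgfr3 1421841_at (-0.12), and with a pseudocount of 64 for Magi1 1440871_at (0.024). Leaving out 1 array at a time turned the sign of Fgfr3 1421841_at (-0.22 to 0.23), Enah 1421624_a_at (-0.27 to 0.10), Arhgef11 1443539_at (-0.79 to 0.35), Slk 1449336_a_at (-0.14 to 0.021), Magi1 1451893_s_at (-0.38 to 0.040), Magi1 1440871_at (-0.83 to 0.72), Cd44 (-0.048 to 0.26), Fgfr3 1425796_a_at (-0.36 to 0.088), Ctnnd1 1422450_at (-0.32 to 0.66), Ctnnd1 1445830_at (-0.60 to 0.49), Enah 1424800_at (-0.20 to 0.18), Enah 1442223_at (-0.41 to 0.17), Arhgef11 1434926_at (-0.25 to 0.62), Slk 1425977_a_at (-0.14 to 0.086), Magi1 1427246_at (-0.92 to 0.074) and Slk 1419092_a_at (-0.17 to 0.46), given with their lowest and highest values.

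Counts over the whole array moved more. Probe sets called were 9 in the main setting, 4 with no scaling, 0 with no filter, where the probe set of Esrp1 did not pass either, 2 without the intensity trend and 1 to 15 with 1 array left out. Genes called were 9 in the main setting and, in the same order, 3, 3, 2 and 6 to 16. Within-gene contrasts called were 1 by diffSplice (in Nav2) and 0 to 130 with 1 array left out, where the lone array of a group is assumed to vary like the others. With the replicate number as a block, 21 probe sets and 18 genes were called, none of them a member; the deviations of same-numbered arrays correlated at 0.093, and nothing in the labels pairs them. The cause of these changes was not tested. Signal over background limits the 6 member probe sets below the filter, for which no test was made.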

Other observations

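A few genes counted in the lists above, but not named there, are given here with their values; they were chosen after these were seen. Fgf7, a ligand that prefers the epithelial form of Fgfr2, had signals of 13.5 and 38.5 on the positive arrays and 10.5 and 31.5 on the negative ones, where both second replicates were the higher and both first replicates lay below the filter level. The receptor Fgfr4 had 38.8 and 36.4 against 27.8 and 34.7, and the receptor-like Fgfrl1, which lacks a kinase domain, had 350 and 304 against 296 and 230. In both the positive arrays were the higher ones, where 32.3% of all genes had groups that did not overlap. Their log2 fold changes of 0.19 and 0.30 did not pass (limma adjusted p 0.990 and 0.985). Scrib, a polarity protein and another gene with an ESRP-sensitive exon, had 253 and 389 against 194 and 274, which overlapped (0.42, limma adjusted p 0.985).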
